A study of Arabidopsis thaliana with 36 samples.

Results

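The 44 loci described here are the nuclear genes of Arabidopsis thaliana for the light-harvesting antennae, the photosystem subunits and the small subunit of Rubisco, 44 of the 37336 loci in the count files. The rule picks them by gene name and uses no measured value, although this family was singled out with earlier results of these data known. They are 13 genes for the antenna of photosystem II (LHCB), 6 for the antenna of photosystem I (LHCA), 4 for the Rubisco small subunit (RBCS), 10 for photosystem II subunits (PSB) and 11 for photosystem I subunits (PSA). All 44 loci stand in the files, and 38 of them passed the filter on low counts and were tested. These genes are read in the nucleus and their proteins are imported into the chloroplast, where they join partners made from the plastid genome. Antenna proteins hold chlorophyll and pass light energy to the reaction centres, and Rubisco fixes carbon dioxide. Their messages are among the most abundant of green tissue and are known to follow light, the circadian clock, sugars and signals from the plastid.

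Messenger RNA was counted from its 3' ends in whole seedlings, 12 days old, that had stood 6 h in water holding either DMSO, the solvent (mock), or a compound that disturbs protein folding in the endoplasmic reticulum (ER). Such compounds start the unfolded protein response (UPR), a change of transcription known to raise folding capacity. The mutant lines bzip17/28, bzip28/60, bzip17/60 and s1p/s2p, each lacking a pair of genes by their labels, were given tunicamycin (Tm, 5 µg/ml), which blocks N-glycosylation, or mock. Wild type (WT) seedlings were given Tm, the disulfide reductant dithiothreitol (DTT, 2 mM), the proline analogue azetidine-2-carboxylic acid (AZC, 5 mM) or mock. In the UPR, bZIP17 and bZIP28 are transcription factors of the ER membrane, cut free by the proteases S1P and S2P, while bZIP60 is made once its messenger RNA is spliced. There were 12 groups of 3 libraries, 36 libraries together. The labels name the mutants by gene only and do not say that the repeats were grown separately, so the tests measure the spread between these libraries, which may be technical. That spread was taken from all 12 groups together, not from the compared groups alone.

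Several members are near-identical copies, and the reads that tell such copies apart carry every statement about single copies below. The last 60 coding bases of the 5 LHCB1 genes and of 3 RBCS genes are shown for that reason, from the RefSeq genome TAIR10.1, 5′ to 3′ on the coding strand, with capitals where a copy differs from the first of its family. LHCB1.3 lies at chr1:10478815-10478874 (plus strand), LHCB1.1 at chr1:10475089-10475148 (minus strand), LHCB1.2 at chr1:10472443-10472502 (minus strand), LHCB1.4 at chr2:14525559-14525618 (plus strand) and LHCB1.5 at chr2:14522716-14522775 (minus strand). RBCS2B lies at chr5:15381203-15381262 (minus strand), RBCS1B at chr5:15384350-15384409 (minus strand) and RBCS3B at chr5:15377501-15377560 (minus strand).
LHCB1.3: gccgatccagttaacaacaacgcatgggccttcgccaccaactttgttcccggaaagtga
LHCB1.1: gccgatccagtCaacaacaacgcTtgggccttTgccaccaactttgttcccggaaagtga
LHCB1.2: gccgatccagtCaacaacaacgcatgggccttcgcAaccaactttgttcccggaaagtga
LHCB1.4: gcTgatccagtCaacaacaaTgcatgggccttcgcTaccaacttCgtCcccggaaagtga
LHCB1.5: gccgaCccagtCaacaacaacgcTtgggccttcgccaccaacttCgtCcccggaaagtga
RBCS2B: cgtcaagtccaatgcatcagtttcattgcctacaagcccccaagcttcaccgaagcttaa
RBCS1B: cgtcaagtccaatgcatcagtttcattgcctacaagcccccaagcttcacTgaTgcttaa
RBCS3B: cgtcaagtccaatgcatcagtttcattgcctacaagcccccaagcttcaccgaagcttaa

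Over these 60 bases the other LHCB1 copies differ from LHCB1.3 at 2 to 6 positions, RBCS1B differs from RBCS2B at 2, and RBCS3B at 0. Over whole coding sequences the LHCB1 copies are 86.8 to 96.4% identical to each other, LHCB2.1 and LHCB2.2 are 78.9% identical, and RBCS2B shares 97.3% with RBCS1B and 94.3% with RBCS3B. The last 200 bases of the annotated transcripts are much less alike, 48.1 to 54.5% between LHCB1 copies, 57.2% between the LHCB2 genes and 48.4 to 53.7% between the RBCS copies. No reads were set aside as aligned to several places, since that line of every file is at 0, and how such reads were handled is not given in the sources used here. Values of single LHCB1, LHCB2 and RBCS copies are therefore marked as uncertain, and tests of the sums over copies are given with them.

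The 250 bases before the annotated gene start are shown for 4 members whose values the results turn on: PSAO, which was lower with Tm in WT and higher in mutants under mock, RBCS2B, higher with Tm in WT, LHCB1.3, lower in mutants under mock, and LHCB1.4, called higher with Tm in bzip17/28. In TAIR10.1 these stretches are chr1:2641935-2642184 (minus strand) for PSAO, chr5:15382072-15382321 (minus strand) for RBCS2B, chr1:10477635-10477884 (plus strand) for LHCB1.3 and chr2:14524357-14524606 (plus strand) for LHCB1.4. Capitals mark matches on either strand to any of the motifs searched, and in LHCB1.4 a CCAAT box and a UPR element core share 1 base and read as 1 run.
PSAO: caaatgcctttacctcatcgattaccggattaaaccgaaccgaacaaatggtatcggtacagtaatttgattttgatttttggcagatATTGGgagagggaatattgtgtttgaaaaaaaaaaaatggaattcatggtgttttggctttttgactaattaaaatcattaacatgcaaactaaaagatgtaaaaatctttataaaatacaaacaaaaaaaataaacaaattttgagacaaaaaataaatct
RBCS2B: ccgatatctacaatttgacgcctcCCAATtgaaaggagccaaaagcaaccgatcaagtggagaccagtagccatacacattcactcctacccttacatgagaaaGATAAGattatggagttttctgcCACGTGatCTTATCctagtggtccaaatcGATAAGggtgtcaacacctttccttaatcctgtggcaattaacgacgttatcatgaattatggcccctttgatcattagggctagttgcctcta
LHCB1.3: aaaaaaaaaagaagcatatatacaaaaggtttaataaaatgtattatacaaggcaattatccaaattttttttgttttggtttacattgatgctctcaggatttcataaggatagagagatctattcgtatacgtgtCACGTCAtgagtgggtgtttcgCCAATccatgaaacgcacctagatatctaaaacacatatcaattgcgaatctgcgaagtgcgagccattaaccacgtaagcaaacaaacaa
LHCB1.4: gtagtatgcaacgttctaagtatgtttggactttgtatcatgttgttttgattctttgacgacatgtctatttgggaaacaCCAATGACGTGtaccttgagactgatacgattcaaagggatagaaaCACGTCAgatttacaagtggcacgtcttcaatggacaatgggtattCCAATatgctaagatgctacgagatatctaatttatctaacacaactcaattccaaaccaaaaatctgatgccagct

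The motifs were searched on both strands of the same 250 bases of all 44 members and of 27443 genes of the annotation. The G-box CACGTG, bound by bZIP and bHLH factors, stood before 9 of 44 members (20.5%, against 6.49% of all promoters), and the I-box GATAAG of light-regulated genes before 10 (22.7%, against 12.3%). The CCAAT box stood before 27 members (61.4%, against 46.0% of all promoters) and the evening element AAAATATCT before 1, LHCA5 (2.27%, against 2.36%). The ER stress response element (CCAAT, then 10 bases of any kind, then CACG), the site known for bZIP28 with NF-Y, stood before 0 members (189 of all promoters, 0.689%). The UPR element core TGACGTG stood before 6 members (13.6%, against 2.90%), LHCB1.3, LHCB1.4, PSBO2, PSBQ2, PSAE1 and PSAE2. The ER stress element contains a CCAAT box, and its last 4 bases may open a G-box. RBCS2B holds 1 G-box, 3 I-boxes and 1 CCAAT box, LHCB1.4 holds 2 UPR element cores, LHCB1.3 holds 1, and PSAO holds only a CCAAT box among these motifs. A match in this window is a description of letters and not a bound site.

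The libraries held 1278322 to 2810235 counts assigned to genes (median 2011039), of which the 44 members took 14.2 to 17.9%. The read counter sets aside a read that fits 2 or more features as ambiguous, and 39.9 to 42.8% of assigned and ambiguous reads were set aside. A read that fits several transcript models is among them. Members with several models therefore rest on reads that fit 1 model only. Among those called below these are LHCB2.1, LHCA5, RBCS1A, RBCS1B, PSBQ2, PSBTN and PSAN. For them a change in the use of models cannot be told apart from a change in level. All 29 members with 1 transcript model were tested, but only 9 of 15 with several. The 6 left out were LHCB4.2, LHCA3, RBCS3B, PSBP1, PSBQA and PSAL, with 0 to 11 counts per library, so nothing is said of their level. The targeted genes were checked where their counts allow. BZIP17 had 0 to 3 counts in bzip17/28, 0 to 1 in bzip17/60 and 5 to 22 in WT. BZIP28 had 0 to 1 counts in bzip17/28 and 26 to 76 in WT. In bzip28/60 it had 23 to 30 counts under mock, against 35 to 42 in WT. With Tm it had 23 to 26 in bzip28/60 and 26 to 48 in WT. These raw counts were lower in bzip28/60 but not near 0, although its libraries were deeper. Libraries of bzip28/60 held at least 2069102 assigned counts, and those of WT at most 1934709. BZIP60 had 69 to 93 counts in bzip28/60, 57 to 91 in bzip17/60 and 171 to 1288 in WT. For s1p/s2p no check was possible, since counts of both genes stayed at 0 to 1 throughout. Mutant groups had 2.77 to 3.19% of reads on no feature, against 3.68 to 4.84% in WT groups. No batch is named in the labels, and in comparisons of mutants with WT a library batch cannot be told apart from genotype. The WT Tm libraries stood apart by their spread: the coefficient of biological variation was 28.2% there and 5.57 to 14.3% in the other 11 groups. Standard errors and p-values come from a spread fitted over all 12 groups together. In comparisons with WT Tm they do not take up its wider spread in full. For groups with a narrow spread, such as bzip17/28 mock (5.57%) and bzip28/60 Tm (5.79%), the shared spread may be wider than their own. Small counts of calls there may then be too low, which was not tested.

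**Figure D1:**
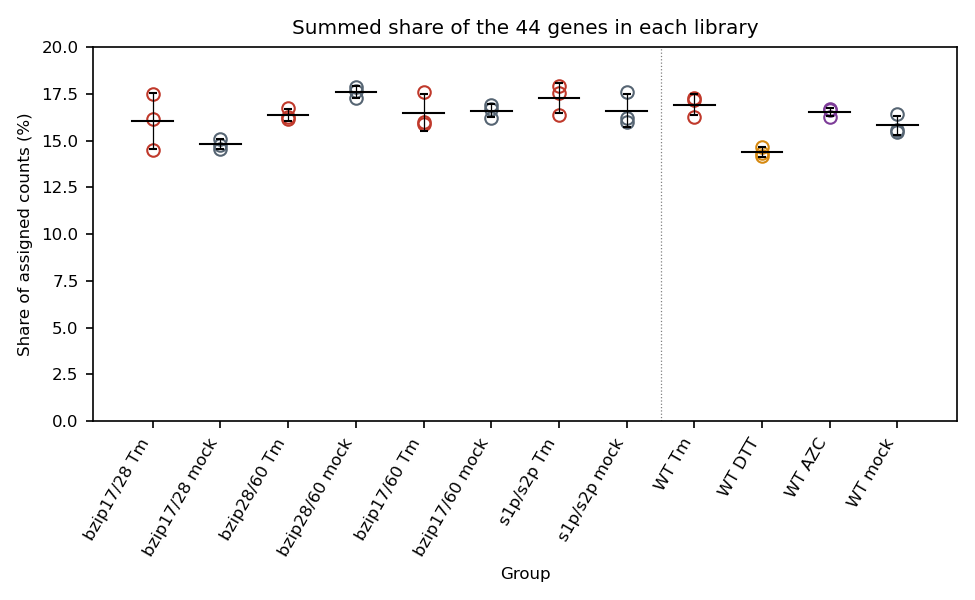
Summed counts of the 44 genes as a percentage of the assigned counts of each library (circles), with the group mean (bar) and SD (whisker, n = 3 libraries); groups run along the x axis and the dotted line separates mutants from WT. The WT DTT libraries, at 14.2 to 14.7%, lie lowest among the WT libraries and overlap with those of bzip17/28. The highest library, at 17.9%, is in the s1p/s2p Tm group.

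As a family the members took 16.9 ± 0.559% of assigned counts in WT with Tm, 14.4 ± 0.257% with DTT and 16.5 ± 0.238% with AZC, against 15.8 ± 0.518% under mock (mean ± SD, n = 3 libraries each). The 3 DTT libraries lay below all 9 other WT libraries. With Tm the share was 16.1 ± 1.49% in bzip17/28, against 14.8 ± 0.263% under mock. The bzip17/28 Tm libraries, at 14.5 to 17.5%, overlapped with its mock libraries, at 14.6 to 15.1%, and in WT the Tm and mock libraries overlapped too. In bzip28/60 it was 16.4 ± 0.317% with Tm and 17.6 ± 0.306% under mock, without overlap. The shares also overlapped in bzip17/60, 16.5 ± 0.972% with Tm and 16.6 ± 0.354% under mock, and in s1p/s2p, 17.3 ± 0.801% and 16.6 ± 0.878%. These shares are plain descriptions of summed counts and were not tested.

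Most single members had group means within a factor of 2 over the 12 groups. Levels are given below as CPM, counts scaled to a common library size with TMM factors. Since 1 read stands for 1 transcript end, they are not divided by length and are compared only within a gene. The ratio of the highest to the lowest of the 12 group means had a median of 1.56 over the 38 tested members (1.205 to 5.09), against 2.11 over all 10480 genes tested. It stayed under 2 for 33 of 38 members and for 44.4% of all genes tested. These genes were not matched to the members in level. The ratio also carries counting noise, larger for genes with few counts, and its part in this contrast was not tested. Of the 33 members with at least 100 CPM on average, PSAO alone passed 2, with group means between 20371 ± 1560.0 CPM in bzip17/60 under mock and 9369 ± 2031 CPM in WT with Tm. The other members above 2 had few counts: PSBQ2 (3 to 25 per library), RBCS1B (0 to 26), PSBTN (14 to 108) and LHCB4.3 (7 to 62).

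**Figure D2:**
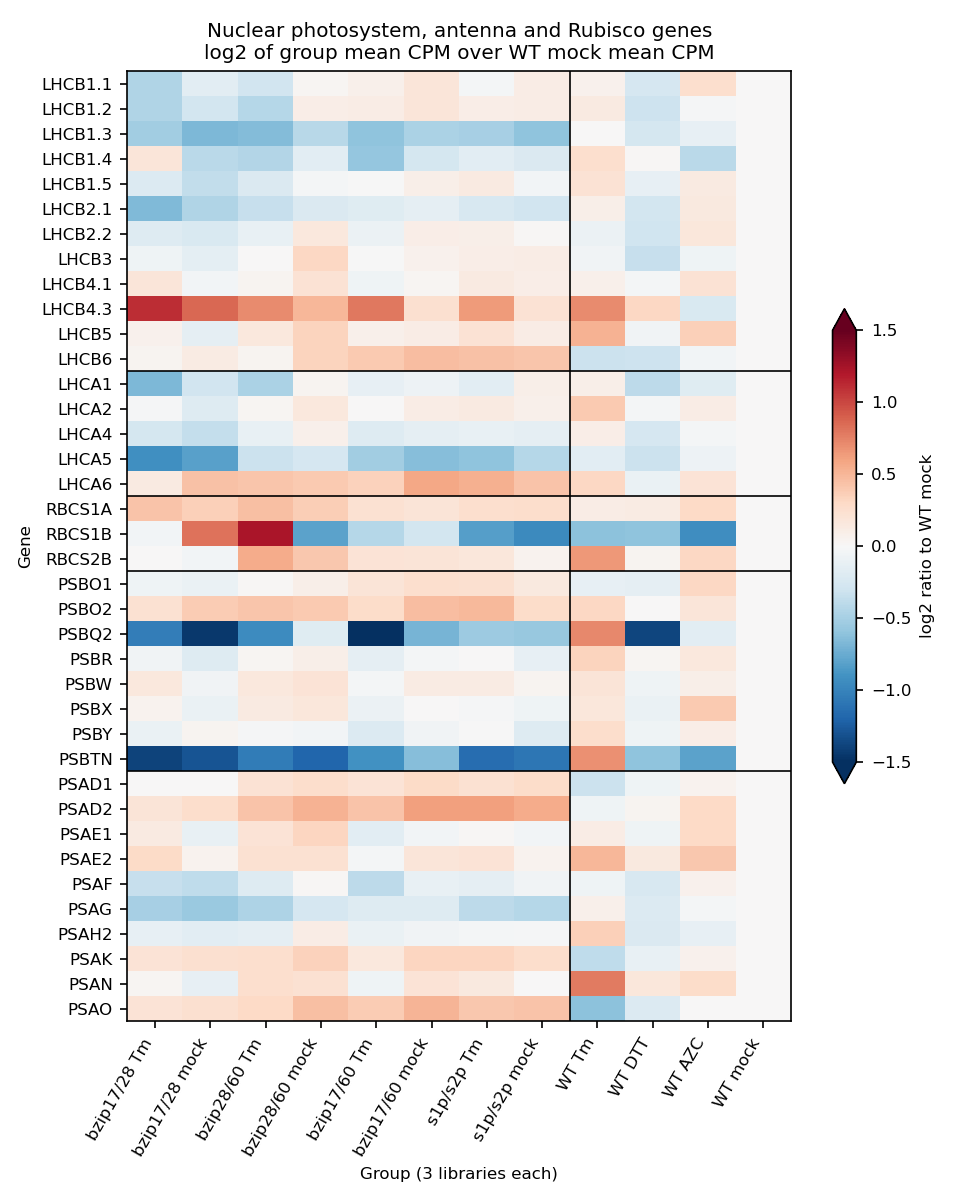
Colour shows the log2 ratio of each group mean CPM to the WT mock mean for the 38 tested genes (rows, divided by horizontal lines into antenna of photosystem II, antenna of photosystem I, Rubisco small subunit, photosystem II and photosystem I) in the 12 groups of 3 libraries (columns, with the mutants left of the vertical line). Most cells are pale, and the strongest colours belong to genes with few counts such as PSBQ2, RBCS1B and PSBTN.

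Among the antenna genes of photosystem II, LHCB1 and LHCB2 make up the mobile major trimers and LHCB3 is part of a trimer bound to the core complex, while LHCB4, LHCB5 and LHCB6 encode the minor antennae next to the core. LHCB4.1 (AT5G01530) was among the steadiest members, with a ratio of 1.22 between its highest and lowest group mean, and LHCB3 (AT5G54270) had 1.57. Among the antenna genes of photosystem I, LHCA1 to LHCA4 encode the belt around the core, and LHCA5 and LHCA6 link photosystem I to the NADH dehydrogenase-like complex. LHCA4 (AT3G47470) had a ratio of 1.37 and LHCA5 (AT1G45474) of 1.89. Reads of LHCA1 (AT3G54890) came from 1 of its 4 models, and its ratio was 1.71. Of the photosystem II subunits, PSBW (AT2G30570) had the lowest ratio of all members, 1.205. PSBO1 (AT5G66570), of the oxygen-evolving complex, had 1.37. Of the photosystem I subunits PSAF (AT1G31330), which docks plastocyanin, had 1.37.

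The fit made 18 comparisons, each tested with edgeR's quasi-likelihood test over 10480 genes, and a gene is called where its Benjamini-Hochberg adjusted p was under 0.05. Values after a gene are the log2 fold change ± its standard error, with 3 libraries per group. In all, 67 calls were made on members, 30 members were called at least once and 8 in no comparison (LHCB1.1, LHCB3, LHCB4.1, LHCB4.3, LHCA1, PSBW, PSAE1 and PSAF). An uncalled member is not shown to be equal between groups.

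**Figure D3:**
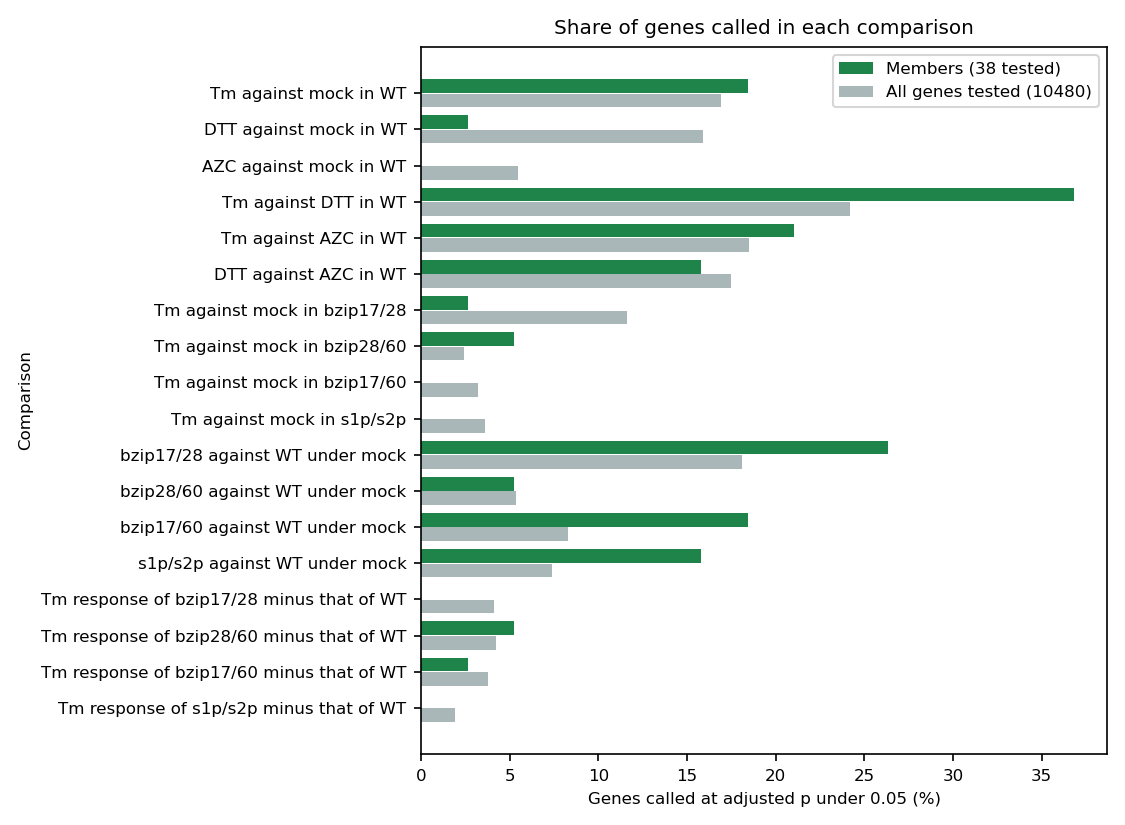
Percentage of genes called at an adjusted p under 0.05 in each of the 18 comparisons (rows), for the 38 tested members (upper bar of each pair) and for all 10480 genes tested (lower bar). The members reach 36.8% in Tm against DTT in WT, where 24.2% of all genes were called, and lie at 0% in 5 comparisons.

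In WT the first question was what each inducer did to these genes. With Tm, 7 of 38 members were called, 5 higher and 2 lower, a share of 18.4% where 16.9% of all genes tested were called, 8.65% higher and 8.26% lower. The median log2 fold change of the members was 0.12, against 0.02 for all genes. Higher were PSAN, LHCB5, RBCS2B, PSAE2 and PSBR, and lower were PSAO and PSAK. Both lower members encode photosystem I subunits, as do PSAN and PSAE2 among the higher ones. PSAO (AT1G08380) is known to help bind the mobile antenna, and PSAK (AT1G30380) lies next to the antenna belt. PSAO had 10544, 7024 and 10539.6 CPM in the 3 WT Tm libraries, against 14060.5, 14567 and 14278 CPM in the WT mock libraries. The groups did not overlap, and library 2 of Tm was the lowest (log2 fold change -0.61 ± 0.13, adjusted p = 0.00107). PSAK had 3021, 2154 and 3066 CPM with Tm, against 3487, 3695 and 3530.3 CPM under mock (log2 fold change -0.38 ± 0.12, adjusted p = 0.0251). These groups did not overlap either, but PSAK was not called when any one of WT mock libraries 1 and 2 and WT Tm library 2 was left out (log2 -0.40 to -0.24, adjusted p = 0.0523 to 0.21).

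PSAN (AT5G64040), a lumenal subunit that helps dock plastocyanin, had 335, 554 and 1004 CPM with Tm, against 324, 354 and 423 CPM under mock (log2 fold change 0.79 ± 0.20, adjusted p = 0.00465). Libraries 2 and 3 of Tm lay above all mock libraries and library 1 lay within their range. PSAN lost its call when WT Tm library 3 was left out (log2 0.27, adjusted p = 0.288). RBCS2B (AT5G38420), whose copies make its value uncertain, had 3619.6, 4439 and 7376 CPM with Tm, against 3207, 3066 and 3539.8 CPM under mock (log2 fold change 0.65 ± 0.15, adjusted p = 0.00178). The groups did not overlap, library 3 of Tm stood highest. RBCS2B was not called when WT Tm library 3 was left out (log2 0.30, adjusted p = 0.0938). The sum of the B copies of RBCS was higher by 0.64 on the log2 scale (adjusted p = 0.00226). That sum is no separate check, since it is nearly all RBCS2B. Over all libraries RBCS2B held 275337 counts, RBCS1B 243 and RBCS3B 6. LHCB5 (AT4G10340), a minor antenna protein, had 2451, 3304 and 3654 CPM with Tm, against 2087, 2144 and 2306 CPM under mock (log2 fold change 0.53 ± 0.13, adjusted p = 0.00275). Its groups did not overlap, and it was called with any one library left out, as was PSAO. PSAE2 (AT2G20260), a stromal subunit near the ferredoxin site, averaged 704 ± 326 CPM with Tm and 499.9 ± 55.7 CPM under mock (log2 fold change 0.50 ± 0.16, adjusted p = 0.0289). The call of PSAE2 was lost when any one of WT mock libraries 1 and 2 and WT Tm library 3 was left out (log2 0.05 to 0.49, adjusted p = 0.0787 to 0.847). PSBR (AT1G79040), a photosystem II subunit near the oxygen-evolving side, averaged 14865 ± 2364 CPM and 11815 ± 339 CPM (log2 fold change 0.33 ± 0.11, adjusted p = 0.0289). PSBR lost its call when any one of WT mock libraries 1, 2 and 3 and WT Tm libraries 2 and 3 was left out (log2 0.24 to 0.35, adjusted p = 0.0611 to 0.137). The median coefficient of variation of a member within the WT Tm group was 26.7%, against 3.2 to 11.6% in the other groups. With only the 6 libraries of the comparison fitted, 0 members were called, and with a spread of its own for each group, an alternative chosen after seeing the data, 3 were. The count was 4 without WT mock library 1 or 2 and 12 without WT Tm library 1. Over all genes 1772 were called in the main fit, 259 with only the 6 libraries and 551 with a spread per group. With those 3 libraries left out in turn, the counts over all genes were 1254, 1260 and 2460.

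With DTT, 1 of 38 members was called (2.63%, where 15.9% of all genes were called, 8.91% higher and 7.02% lower), although 29 of 38 lay below 0 and their median was -0.11. It was PSBQ2 (AT4G05180), a subunit of the oxygen-evolving complex, with few counts, and reads that fit both of its models are set aside. PSBQ2 had 1.78, 4.52 and 3.17 CPM with DTT, against 7.3, 6.22 and 11.2 CPM under mock (log2 fold change -1.40 ± 0.42, adjusted p = 0.0171). The groups did not overlap. The call of PSBQ2 was lost when any one of WT DTT library 1 and WT mock library 3 was left out (log2 -1.10 to -1.08, adjusted p = 0.125 to 0.144). PSAO had 12177, 13942 and 10995 CPM with DTT, below each mock library, but was not called (log2 fold change -0.21 ± 0.13, adjusted p = 0.312, 95% interval -0.48 to 0.06). The count with DTT was 0 without WT DTT library 1 or WT mock library 3, 2 without WT DTT library 2 or WT mock library 1 or 2, and 3 without WT DTT library 3. DESeq2 called 5 and a spread per group 4, all lower. With AZC, 0 of 38 members were called by edgeR's quasi-likelihood test, where 5.49% of all genes were called, 3.28% higher and 2.2% lower, 8 members had an unadjusted p under 0.05, and DESeq2 called 2. Without WT AZC library 3 the count was 1. PSAO had 14356, 13089 and 15483 CPM with AZC, around the mock values (log2 fold change 0.00 ± 0.13, adjusted p = 0.998, 95% interval -0.27 to 0.27). For the 33 members with at least 100 CPM the log2 fold changes ran from -0.40 to 0.17 with DTT and from -0.40 to 0.40 with AZC, and their 95% intervals stayed within -0.86 to 0.58 and -0.73 to 0.74.

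Root genes moved with the same treatments. The summed levels of 14 root markers, per assigned count without further scaling, were 187 to 227 CPM with Tm, 77.4 to 102 with DTT and 176 to 198 with AZC, against 242 to 273 under mock. Of 12 root markers tested, 3 fell with Tm, 10 with DTT and 7 with AZC, and 0 rose, with median log2 fold changes of -0.26, -2.93 and -1.12. Between 0 and 5 of the 14 markers were at 0 in a library. In whole seedlings fewer cells of a type and less RNA per cell cannot be told apart, and the part of the root signal in the values of the members was not tested. The photorespiration genes, another sign of green tissue, summed to 2185 to 2796 CPM with Tm, 1941 to 2168 with DTT and 2138 to 2412 with AZC, against 1916 to 2163 under mock. Of 6 tested, 2 rose with Tm, 0 changed with DTT and 1 rose with AZC.

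**Figure D4:**
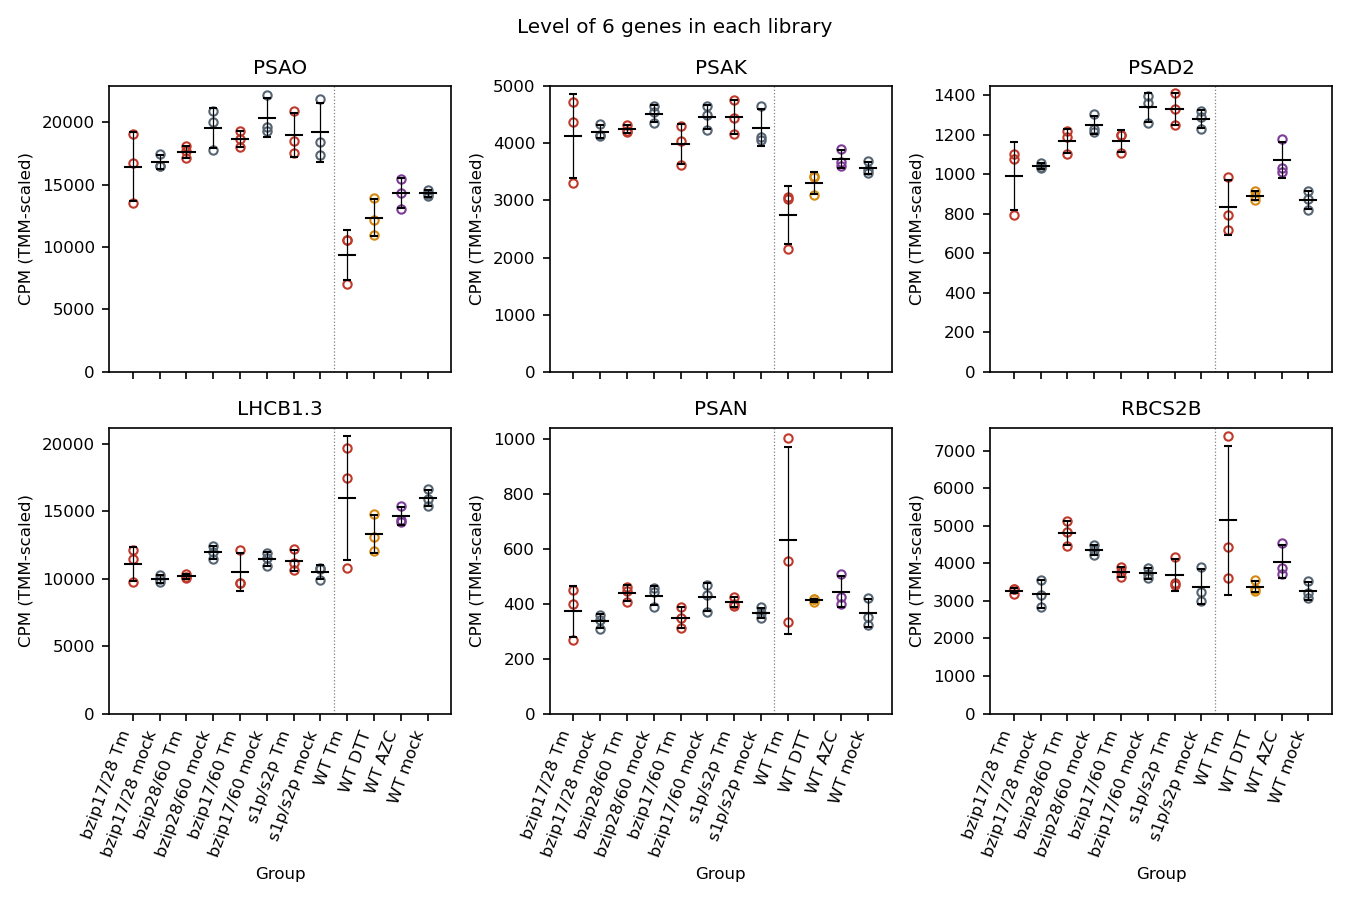
CPM of 6 genes, chosen after their values were seen, in every library (circles), with the group mean (bar) and SD (whisker, n = 3 libraries); groups run along the x axis, red for Tm, orange for DTT, purple for AZC and grey for mock, and the dotted line separates mutants from WT. PSAO is lowest in WT with Tm and all mutant mock libraries lie above WT mock, LHCB1.3 is lower in mutants under mock than in WT, and 1 WT Tm library stands above the other two for PSAN and RBCS2B.

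Inducers were then set against each other in WT, which shares the Tm, DTT and AZC libraries with the tests above. Tm against DTT gave the largest count of the 18 comparisons: 14 of 38 members were called, 13 higher and 1 lower, or 36.8%, where 24.2% of all genes were called, 12.1% higher and 12.1% lower. The median of the members was 0.30, against 0.05 for all genes, and 32 of 38 lay above 0. The calls fell in all 5 classes, with 4 of 12 photosystem II antenna genes, 2 of 5 photosystem I antenna genes, 1 of 3 RBCS genes, 4 of 8 photosystem II genes and 2 of 10 photosystem I genes higher. PSBQ2 had 9.25, 19.8 and 11.6 CPM with Tm, against 1.78, 4.52 and 3.17 CPM with DTT (log2 fold change 2.08 ± 0.40, adjusted p = 0.000122). The groups did not overlap, and the call held with any one library left out. PSBTN (AT3G21055), a small lumenal photosystem II subunit with few counts, had 53.2, 85.5 and 9.91 CPM with Tm, against 23.7, 11.6 and 25.4 CPM with DTT (log2 fold change 1.24 ± 0.39, adjusted p = 0.0164). Library 3 of Tm lay below the DTT libraries. PSBTN lost its call when any one of WT DTT library 2 and WT Tm library 2 was left out (log2 0.53 to 0.93, adjusted p = 0.119 to 0.403). PSAN had 417, 417 and 407 CPM with DTT, next to the Tm values above (log2 fold change 0.62 ± 0.20, adjusted p = 0.0198). PSAN was not called when any one of WT DTT libraries 1, 2 and 3 and WT Tm library 3 was left out (log2 0.10 to 0.60, adjusted p = 0.0582 to 0.723). RBCS2B had 3553, 3304 and 3275 CPM with DTT (log2 fold change 0.61 ± 0.15, adjusted p = 0.0022). The call of RBCS2B was lost when WT Tm library 3 was left out (log2 0.25, adjusted p = 0.147). Summed, the B copies of RBCS were higher by 0.59 on the log2 scale (adjusted p = 0.00289), a sum again made up nearly wholly of RBCS2B.

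PSAH2 (AT1G52230), which docks the mobile antenna during state transitions, had 1198 ± 313 CPM with Tm and 798 ± 109 CPM with DTT (log2 fold change 0.59 ± 0.15, adjusted p = 0.00348). PSAH2 was not called when WT Tm library 3 was left out (log2 0.36, adjusted p = 0.0788). The other 8 called higher were LHCB5, LHCB1.2, LHCA2, LHCB2.1, LHCA4, LHCB1.5, PSBY and PSBR, with log2 fold changes from 0.30 to 0.58. Of these, LHCB5 alone was called with any one library left out (log2 fold change 0.58 ± 0.13, adjusted p = 0.000605). LHCA2 was called under 5 of 11 other settings. It was lost with DESeq2, relative log expression factors, a block for repeat number, copies summed, a spread per group and only the libraries compared. The sum of the LHCB2 copies was higher by 0.29 on the log2 scale (adjusted p = 0.0374), and the sum of the LHCB1 copies, also at 0.29, did not pass (adjusted p = 0.0751). PSAO was again lower with Tm than with DTT (log2 fold change -0.40 ± 0.13, adjusted p = 0.0222). The call of PSAO was lost when any one of WT DTT library 2 and WT Tm library 2 was left out (log2 -0.32 to -0.26, adjusted p = 0.127 to 0.159). The count of 14 fell to 7 without WT DTT library 1 and to 8 without WT DTT library 2 or 3. With only the 6 libraries of the comparison fitted it was 1, and with a spread per group 6. Over all genes the counts were 1999, 1921, 2168, 808 and 1096 in the same order, against 2536 in the main fit. Root markers differed here too, with 8 of 12 higher with Tm and a median of 2.75.

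Tm against AZC called 8 members, 3 higher and 5 lower (21.1%, where 18.5% of all genes were called, 9.38% higher and 9.13% lower). Higher were PSBTN, LHCB1.4 and PSAH2, and lower were PSAO, PSAK, PSBO1, PSAD1 and PSAD2, 4 of these 5 being photosystem I subunits. PSAO averaged 9369 ± 2031 CPM with Tm and 14309 ± 1198 CPM with AZC (log2 fold change -0.61 ± 0.13, adjusted p = 0.000858). The 2 groups did not overlap, and the call held with any one library left out. LHCB1.4 (AT2G34430), a major antenna copy and uncertain as such, had 11930.3, 13112 and 7021 CPM with Tm, against 6559, 5866 and 7907 CPM with AZC (log2 fold change 0.66 ± 0.16, adjusted p = 0.00261). Library 3 of Tm lay within the AZC range. LHCB1.4 lost its call when WT Tm library 2 was left out (log2 0.47, adjusted p = 0.0558). The summed LHCB1 copies did not pass (log2 0.14, adjusted p = 0.453). PSBTN had 20.97, 9.80 and 22.1 CPM with AZC (log2 fold change 1.41 ± 0.39, adjusted p = 0.00911). PSBTN was not called when any one of WT AZC library 2 and WT Tm library 2 was left out (log2 0.70 to 1.12, adjusted p = 0.0626 to 0.29). PSAK (log2 fold change -0.44 ± 0.12, adjusted p = 0.00823) was not called when WT Tm library 2 was left out (log2 -0.31, adjusted p = 0.0842). PSAD2 (AT1G03130, log2 fold change -0.36 ± 0.12, adjusted p = 0.0241) was not called when any one of WT AZC library 2 and WT Tm library 2 was left out (log2 -0.31 to -0.29, adjusted p = 0.0945 to 0.125). PSBO1 (log2 fold change -0.44 ± 0.14, adjusted p = 0.0214) was not called when any one of WT AZC library 3 and WT Tm library 2 was left out (log2 -0.41 to -0.29, adjusted p = 0.0787 to 0.183). PSAD1 (AT4G02770, log2 fold change -0.38 ± 0.13, adjusted p = 0.0337) was not called when any one of WT AZC libraries 1 and 3 and WT Tm libraries 2 and 3 was left out (log2 -0.38 to -0.21, adjusted p = 0.0611 to 0.277). PSAH2 (log2 fold change 0.48 ± 0.15, adjusted p = 0.0201) was not called when any one of WT AZC libraries 1 and 3 and WT Tm library 3 was left out (log2 0.26 to 0.43, adjusted p = 0.0885 to 0.227). PSAD1 and PSAD2 encode the stromal subunit that binds ferredoxin. The count was 2 without WT Tm library 2, 14 without library 1 and 15 without library 3, 0 with only the libraries of the comparison fitted and 4 with a spread per group. Over all genes the counts were 1179, 2444, 2032, 480 and 677 in the same order, against 1940 in the main fit. Of 12 root markers, 6 were called higher and 2 lower with Tm, and their part was not tested.

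DTT against AZC called 6 members, all lower with DTT (15.8%, where 17.5% of all genes were called, 9.49% higher and 7.99% lower). The median of the members was -0.23, against -0.01 for all genes, and 4 of 38 lay above 0. LHCB2.2 (AT2G05070) had 1804, 1848 and 1897 CPM with DTT, against 2389.7, 2709.9 and 2583 CPM with AZC (log2 fold change -0.47 ± 0.12, adjusted p = 0.00318). LHCB2.1 (AT2G05100) averaged 3067 ± 28.5 CPM with DTT and 4097 ± 316 CPM with AZC (log2 fold change -0.42 ± 0.11, adjusted p = 0.00605). Neither pair of groups overlapped, both calls held with any one library left out, and the sum of the LHCB2 copies was lower by the same measure (log2 -0.44, adjusted p = 0.00203). PSBX (AT2G06520), a small photosystem II subunit, had 2604, 2854 and 2360.4 CPM with DTT, against 3321, 4285 and 3349 CPM with AZC (log2 fold change -0.49 ± 0.13, adjusted p = 0.00848). PSBX lost its call when any one of WT AZC library 2 and WT DTT library 3 was left out (log2 -0.42 to -0.35, adjusted p = 0.0607 to 0.0996). PSBQ2 had 6.99, 7.7 and 7.38 CPM with AZC (log2 fold change -1.22 ± 0.43, adjusted p = 0.0464). PSBQ2 was not called when any one of WT AZC libraries 1, 2 and 3 and WT DTT libraries 1 and 3 was left out (log2 -1.25 to -0.91, adjusted p = 0.0841 to 0.217), nor with DESeq2, all genes kept, scaling by library size, a spread per group or only the libraries compared. PSBO1 (log2 fold change -0.45 ± 0.14, adjusted p = 0.0177) was not called when any one of WT AZC libraries 1 and 3 and WT DTT libraries 1 and 3 was left out (log2 -0.45 to -0.31, adjusted p = 0.0531 to 0.183). LHCB5 (log2 fold change -0.40 ± 0.13, adjusted p = 0.0202) was not called when any one of WT AZC library 2 and WT DTT library 3 was left out (log2 -0.39 to -0.27, adjusted p = 0.0637 to 0.193). The count was 3 without WT AZC library 2 or WT DTT library 3. Root markers were lower with DTT in 4 of 12 here, and their part was not tested.

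Under mock, each mutant was set against WT to ask how the members stood without an inducer. All 4 comparisons share the 3 WT mock libraries, so the direction of a gene in several mutants is not independent. In bzip17/28, 10 of 38 members were called, 2 higher and 8 lower (26.3%, where 18.1% of all genes were called, 9.16% higher and 8.91% lower), with a median of -0.13. LHCB1.3 (AT1G29930), the LHCB1 copy with the most counts and uncertain as a single copy, had 10289, 9977 and 9735 CPM in bzip17/28, against 15416, 16654 and 15884 CPM in WT (log2 fold change -0.68 ± 0.13, adjusted p = 0.000331). LHCA5 had 75.8, 78.7 and 65.3 CPM in bzip17/28, against 129.5, 113 and 143 CPM in WT (log2 fold change -0.81 ± 0.14, adjusted p = 4.19e-05). For both genes the groups did not overlap. PSAG (AT1G55670), a photosystem I subunit next to the antenna belt, averaged 7929 ± 144 CPM in bzip17/28 and 11692 ± 460.0 CPM in WT (log2 fold change -0.56 ± 0.12, adjusted p = 0.00089). LHCB2.1 was lower (log2 fold change -0.45, adjusted p = 0.00325). These 4 calls held with any one library left out and under every setting that could be run for the gene, which was 9 for LHCB2.1, 10 for LHCB1.3 and LHCA5 and 11 for PSAG. Settings that dropped a gene or merged it into a sum are not among them.

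PSBQ2 had 2.66, 2.88 and 3.48 CPM in bzip17/28, against 7.3, 6.22 and 11.2 CPM in WT (log2 fold change -1.45 ± 0.38, adjusted p = 0.00626). The call of PSBQ2 was lost when WT mock library 3 was left out (log2 -1.16, adjusted p = 0.0864). PSBTN was lower (log2 fold change -1.31, adjusted p = 0.0176) and was not called when any one of bzip17/28 mock libraries 1 and 3 and WT mock library 3 was left out (log2 -1.32 to -0.82, adjusted p = 0.0531 to 0.263). The remaining lower members were LHCA4 (log2 -0.36), lost when any one of bzip17/28 mock libraries 2 and 3 and WT mock library 3 was left out (log2 -0.33 to -0.28, adjusted p = 0.0614 to 0.113). LHCB1.5 (log2 -0.37), lost when any one of bzip17/28 mock libraries 2 and 3 and WT mock libraries 1 and 2 was left out (log2 -0.36 to -0.33, adjusted p = 0.0514 to 0.0798). Higher in bzip17/28 were RBCS1A (AT1G67090), the RBCS gene apart from the B cluster, with 1319 ± 120.2 CPM in bzip17/28 and 1029 ± 40.5 CPM in WT (log2 fold change 0.36 ± 0.13, adjusted p = 0.0406), and PSBO2 (AT3G50820), another PSBO copy (log2 fold change 0.38 ± 0.14, adjusted p = 0.0478). RBCS1A was not called when any one of bzip17/28 mock libraries 1 and 2 and WT mock libraries 1, 2 and 3 was left out (log2 0.30 to 0.40, adjusted p = 0.0547 to 0.155). PSBO2 was not called when any one of bzip17/28 mock libraries 1, 2 and 3 and WT mock libraries 1, 2 and 3 was left out (log2 0.36 to 0.41, adjusted p = 0.0654 to 0.116). The calls of LHCA4 and LHCB1.5 were also lost with library size alone and with no filter on low counts, and those of RBCS1A and PSBO2 with no filter and with scaling factors from the other genes. The count was 6 without bzip17/28 mock library 3 and 5 without WT mock library 3, and 20 with only the 6 libraries fitted. With loci of 1 model only, which leaves fewer members to test, it was 5. In bzip17/28 the sums over copies were lower as well, with a log2 fold change of -0.42 for LHCB1 (adjusted p = 0.0117) and of -0.37 for LHCB2 (adjusted p = 0.0115). Root markers summed to 297 to 337 CPM in bzip17/28, against 242 to 273 in WT, and 2 of 12 were called higher; their part was not tested.

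In bzip28/60, 2 members were called, both higher (5.26%, where 5.35% of all genes were called, 1.77% higher and 3.59% lower): PSAD2, with 1217, 1305 and 1231 CPM in bzip28/60, against 822, 915 and 877 CPM in WT (log2 fold change 0.52 ± 0.12, adjusted p = 0.00501), and PSAO, with 17769, 19998 and 20902 CPM in bzip28/60, against 14060.5, 14567 and 14278 CPM in WT (log2 fold change 0.45 ± 0.13, adjusted p = 0.0328). Neither overlapped with WT, and the call of PSAO was lost when any one of bzip28/60 mock libraries 2 and 3 and WT mock libraries 1, 2 and 3 was left out (log2 0.40 to 0.47, adjusted p = 0.0703 to 0.14). The median of the members was 0.16. The count was 1 without bzip28/60 mock library 2 or 3 or WT mock library 1. It was 6 with library size alone and with DESeq2, 10 with a spread per group and 11 with only the 6 libraries fitted. LHCB1.3, with 12425, 11450.1 and 12003 CPM, lay below the WT libraries but did not pass (log2 fold change -0.42 ± 0.13, adjusted p = 0.0577), and neither did the sum of the LHCB1 copies (log2 -0.14, adjusted p = 0.584). Of 12 root markers 1 was called higher, with a sum of 284 to 342 CPM in bzip28/60, and its part was not tested.

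In bzip17/60, 7 members were called, 5 higher and 2 lower (18.4%, where 8.31% of all genes were called, 3.54% higher and 4.77% lower). PSAD2 had 1363, 1258 and 1398 CPM in bzip17/60, above each WT library (log2 fold change 0.62 ± 0.12, adjusted p = 0.000539). LHCA5 had 75.8, 77.2 and 93.4 CPM, below each WT library (log2 fold change -0.65 ± 0.14, adjusted p = 0.00223). Both calls held with any one library left out. PSAO had 19649, 19303 and 22161 CPM (log2 fold change 0.51 ± 0.13, adjusted p = 0.0106). PSAO lost its call when bzip17/60 mock library 3 was left out (log2 0.45, adjusted p = 0.0533). LHCA6 (AT1G19150), the partner of LHCA5 in the link to the NADH dehydrogenase-like complex, averaged 293 ± 16.5 CPM in bzip17/60 and 196 ± 10.9 CPM in WT (log2 fold change 0.58 ± 0.18, adjusted p = 0.0295). LHCA6 was not called when any one of bzip17/60 mock libraries 1 and 2 and WT mock libraries 1, 2 and 3 was left out (log2 0.54 to 0.62, adjusted p = 0.0674 to 0.113). LHCB6 (AT1G15820), a minor antenna protein, averaged 6431 ± 44.2 CPM and 4659 ± 495 CPM (log2 fold change 0.46 ± 0.13, adjusted p = 0.0144). The call of LHCB6 was lost when any one of bzip17/60 mock library 2 and WT mock libraries 1 and 2 was left out (log2 0.42 to 0.46, adjusted p = 0.0548 to 0.0614). PSBO2 (log2 fold change 0.46 ± 0.14, adjusted p = 0.0258) was not called when any one of bzip17/60 mock libraries 1 and 3 and WT mock libraries 1 and 3 was left out (log2 0.41 to 0.47, adjusted p = 0.0643 to 0.111). LHCB1.3 had 11576, 10930.1 and 11935 CPM (log2 fold change -0.48 ± 0.13, adjusted p = 0.0198). LHCB1.3 lost its call when any one of bzip17/60 mock libraries 1 and 2 and WT mock libraries 1, 2 and 3 was left out (log2 -0.49 to -0.44, adjusted p = 0.0533 to 0.0905). The summed copies of LHCB1 did not pass in bzip17/60 (log2 -0.11, adjusted p = 0.637). The count was 3 without WT mock library 1 and 4 without WT mock library 2 or 3 or bzip17/60 mock library 1 or 2. Of 12 root markers 1 was called higher, with a sum of 269 to 293 CPM in bzip17/60, and its part was not tested.

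In s1p/s2p, 6 members were called, 3 higher and 3 lower (15.8%, where 7.39% of all genes were called, 2.81% higher and 4.57% lower). LHCB1.3 had 9943, 10720.4 and 10836 CPM in s1p/s2p, against 15416, 16654 and 15884 CPM in WT (log2 fold change -0.61 ± 0.13, adjusted p = 0.00315). PSAD2 had 1291, 1231 and 1320.1 CPM in s1p/s2p, against 822, 915 and 877 CPM in WT (log2 fold change 0.56 ± 0.12, adjusted p = 0.00189). Neither overlapped with WT, and both calls held with any one library left out. Summed, the LHCB1 copies did not pass in s1p/s2p (log2 -0.19, adjusted p = 0.397). LHCA5 had 87.1, 114 and 86.6 CPM, overlapping with WT by 1 library (log2 fold change -0.43 ± 0.14, adjusted p = 0.0465). LHCA5 was not called when any one of s1p/s2p mock libraries 1 and 3 and WT mock libraries 1 and 3 was left out (log2 -0.41 to -0.35, adjusted p = 0.133 to 0.207), nor with all genes kept, scaling by library size or only the libraries compared. PSAO (log2 fold change 0.43 ± 0.13, adjusted p = 0.0371) was not called when any one of s1p/s2p mock libraries 2 and 3 and WT mock libraries 1, 2 and 3 was left out (log2 0.33 to 0.47, adjusted p = 0.0614 to 0.207), nor with loci of 1 model only. LHCB6 (log2 fold change 0.42 ± 0.12, adjusted p = 0.0327) was not called when any one of s1p/s2p mock libraries 2 and 3 and WT mock libraries 1 and 2 was left out (log2 0.34 to 0.41, adjusted p = 0.0831 to 0.173), nor with no filter on low counts. PSAG (log2 fold change -0.43 ± 0.12, adjusted p = 0.0198) was not called when any one of s1p/s2p mock libraries 1 and 3 and WT mock libraries 1 and 3 was left out (log2 -0.43 to -0.36, adjusted p = 0.0608 to 0.118). The count was 2 without s1p/s2p mock library 3 or WT mock library 1 and 3 without WT mock library 3. In s1p/s2p 3 of 12 root markers were called lower, with a summed 155 to 224 CPM, and their part was not tested.

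Across the mutants under mock, the 12 mutant libraries did not overlap with the 3 WT libraries, which every comparison shares, for PSAO, PSAD2, PSAK, PSBO2, RBCS1A and LHCA6, all higher in the mutants, and for LHCB1.3 and PSAG, lower in them. How many of all genes tested separate in this way was not counted, so the list is not shown to be particular to these members. PSAO ran from 16515 to 22161 (median 18861) CPM in the mutants, against 14060.5 to 14567 (median 14278) CPM in WT. PSAD2 ran from 1032 to 1398 (median 1245) CPM, against 822 to 915 (median 877) CPM. PSAK ran from 4062 to 4654 (median 4346) CPM, against 3487 to 3695 (median 3530.3) CPM, but was called in 0 of 4 mutants, with log2 fold changes of 0.24, 0.34, 0.32 and 0.26. LHCB1.3 ran from 9735 to 12425 (median 10883) CPM, against 15416 to 16654 (median 15884) CPM. PSAG ran from 7767 to 10905 (median 9685) CPM in the mutants, against 11374 to 12219.8 (median 11483) CPM in WT. PSBO2 ran from 523 to 678 (median 577) CPM, against 437 to 463 (median 459) CPM, RBCS1A from 1137 to 1453 (median 1269) CPM, against 982 to 1054 (median 1050.3) CPM, and LHCA6 from 220.4 to 311 (median 271) CPM, against 185 to 207 (median 195) CPM. In bzip17/28 neither PSAO (log2 fold change 0.24 ± 0.13, adjusted p = 0.231) nor PSAD2 (log2 fold change 0.26 ± 0.12, adjusted p = 0.121) passed. LHCB1.3 in the mutants kept its place with Tm, where the 24 mutant libraries of both treatments lay between 9669 and 12425 CPM, against 10813 to 19706 CPM in the 12 WT libraries, and only WT Tm library 3 and WT DTT library 3 of WT fell within the mutant range.

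The tests of Tm within each mutant called few members. In bzip17/28 it was 1 of 38 (2.63%, where 11.6% of all genes were called, 4.59% higher and 7% lower), LHCB1.4, with 11264, 8325 and 10844 CPM with Tm, against 6842, 6795 and 6725 CPM under mock (log2 fold change 0.58 ± 0.16, adjusted p = 0.00969). The groups did not overlap. The call of LHCB1.4 was lost when any one of bzip17/28 Tm libraries 1 and 3 was left out (log2 0.49 to 0.53, adjusted p = 0.0541 to 0.0693). The sum of the LHCB1 copies did not pass in bzip17/28 (log2 0.12, adjusted p = 0.644). In bzip28/60 it was 2 of 38 (5.26%, where 2.42% of all genes were called, 0.887% higher and 1.54% lower). LHCB1.2 (AT1G29910) had 6537, 6449 and 6566 CPM with Tm, against 8779, 9819 and 9609.5 CPM under mock (log2 fold change -0.53 ± 0.12, adjusted p = 0.00762), without overlap, and the call held with any one library left out. RBCS1B (AT5G38430) rests on few reads, with 10.1, 5.62 and 8.9 CPM with Tm, against 1.17, 1.94 and 2.93 CPM under mock (log2 fold change 2.02 ± 0.50, adjusted p = 0.0156). The call of RBCS1B was lost when any one of bzip28/60 mock libraries 1 and 2 and bzip28/60 Tm libraries 1 and 3 was left out (log2 1.72 to 2.00, adjusted p = 0.0616 to 0.148). The summed LHCB1 copies did not pass in bzip28/60 (log2 -0.31, adjusted p = 0.227), nor did the summed B copies of RBCS (log2 0.14, adjusted p = 0.831). The RBCS sum is nearly all RBCS2B and cannot bear on RBCS1B. The count was 1 without bzip28/60 mock library 1 or 2 or Tm library 1 or 3, 5 with a spread per group and 13 with only the 6 libraries fitted. Of the 5, 4 were lower, and of the 13, 12 were lower. Over all genes 554 and 706 were called there, against 254 in the main fit. In the main fit 28 of 38 members lay below 0 in bzip28/60 and 34 in bzip17/60, with medians of -0.12 and -0.10. In bzip17/28 14 and in s1p/s2p 12 lay below 0. In bzip17/60 and s1p/s2p edgeR's quasi-likelihood test called 0 of 38 members, where 3.2% (1.04% higher and 2.16% lower) and 3.6% (1.81% higher and 1.78% lower) of all genes were called, and 2 and 0 members had an unadjusted p under 0.05. The log2 fold changes of the 33 members with at least 100 CPM ran from -0.32 to 0.04 in bzip17/60 and from -0.24 to 0.22 in s1p/s2p. Root markers were called lower with Tm in 5, 2, 3 and 4 of 12 in bzip17/28, bzip28/60, bzip17/60 and s1p/s2p, and their part was not tested.

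Whether the Tm response of a mutant differed from that of WT was tested as the difference between the log2 fold changes, and 3 such differences were called among the members. All 4 tests share the WT Tm and WT mock libraries, and of 12 root markers 0, 1, 1 and 1 were called lower by them in bzip17/28, bzip28/60, bzip17/60 and s1p/s2p, whose part was not tested. In bzip28/60, 2 of 38 members were called (5.26%, where 4.24% of all genes were called, 2.09% higher and 2.15% lower). LHCB5 had 2228, 2439 and 2635 CPM with Tm and 2756, 2880.2 and 2597 CPM under mock in bzip28/60, and in WT it had 2451, 3304 and 3654 CPM with Tm and 2087, 2144 and 2306 CPM under mock. Its log2 fold change was -0.17 in bzip28/60 and 0.53 in WT, a difference of -0.70 (adjusted p = 0.0162), which was not called when bzip28/60 Tm library 1 was left out (log2 -0.63, adjusted p = 0.0585). LHCB1.2, an uncertain copy, had log2 fold changes of -0.53 in bzip28/60 and 0.14 in WT, a difference of -0.66 (adjusted p = 0.0187), which was not called when any one of WT mock libraries 1 and 2 and WT Tm library 2 was left out (log2 -0.64 to -0.59, adjusted p = 0.0514 to 0.0521). The sum of the LHCB1 copies did not pass (log2 -0.41, adjusted p = 0.165). In bzip17/60, 1 of 38 members was called (2.63%, where 3.79% of all genes were called, 1.8% higher and 1.98% lower), PSAN, with 348, 389 and 313 CPM with Tm and 470.0, 369 and 431 CPM under mock in bzip17/60. Its log2 fold change was -0.27 there and 0.79 in WT, a difference of -1.06 (adjusted p = 0.0246), which was not called when any one of bzip17/60 mock libraries 1 and 3, bzip17/60 Tm libraries 1 and 3, WT mock libraries 1 and 2 and WT Tm library 3 was left out (log2 -1.05 to -0.55, adjusted p = 0.052 to 0.161). With only the libraries of the comparison fitted, none of the 3 differences passed, and PSAN did not pass with a spread per group either. DESeq2 called 4 members in bzip28/60 and 5 in bzip17/60, and with no filter on low counts 4 were called in bzip28/60.

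In bzip17/28 and s1p/s2p edgeR's quasi-likelihood test called 0 of 38 differences of response, where 4.12% (2% higher and 2.12% lower) and 1.91% (1.15% higher and 0.754% lower) of all genes were called. Unadjusted p was under 0.05 for 7 and 5 members, and DESeq2 called 1 in each. PSAO, lower with Tm in WT, had log2 fold changes with Tm of -0.03, -0.15, -0.12 and -0.02 in bzip17/28, bzip28/60, bzip17/60 and s1p/s2p, against -0.61 in WT. The differences of response were 0.58 (95% interval 0.19 to 0.96), 0.46 (95% interval 0.08 to 0.85), 0.49 (95% interval 0.10 to 0.87) and 0.59 (95% interval 0.21 to 0.97), and none of these 4 passed after adjustment (adjusted p = 0.0661, 0.15, 0.134 and 0.0818). The counts of called differences moved most with WT Tm library 1, without which they were 5 in bzip17/28, 11 in bzip28/60, 10 in bzip17/60 and 7 in s1p/s2p. Over all genes the counts moved as well without that library, to 1084, 1188, 1190 and 992. In the main fit they were 432, 444, 397 and 200, so the move is not particular to the members. Without WT Tm library 3 the counts of members were 2, 5, 2 and 1, and without WT Tm library 2 they were 2 in bzip17/28 and 1 in bzip28/60. In bzip17/28 the count was 1 without its Tm library 2. In bzip28/60 it was 1 without its Tm library 1 or WT mock library 1 or 2, and 4 without WT mock library 3. In bzip17/60 it was 0 without its mock library 1 or 3, its Tm library 1 or 3, or WT mock library 1 or 2.

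The shares of the LHCB1 copies in their summed counts differed between groups by more than the SD of either group for LHCB1.3 in all 4 mutants under mock. LHCB1.3 took 27.7 ± 1.08% of the summed LHCB1 counts in bzip17/28, 27.3 ± 1.46% in bzip28/60, 25.6 ± 0.678% in bzip17/60 and 24.8 ± 1.78% in s1p/s2p under mock, against 33.1 ± 0.252% in WT (mean ± SD, n = 3 libraries each). The 12 mutant mock libraries lay between 23.1 and 29.0%, and the 3 WT mock libraries between 32.9 and 33.4%. LHCB1.2 had a larger share in the mutants, 20.1 ± 0.278%, 21.4 ± 1.09%, 22.2 ± 1.25% and 22.3 ± 1.05% in the same order, against 18.2 ± 1.44% in WT. LHCB1.4 took 25.7 ± 2.26% in bzip17/28 with Tm, against 18.8 ± 0.411% under mock. In WT it took 20.1 ± 2.09% with Tm, 21.4 ± 1.67% with DTT and 14.5 ± 2.14% with AZC, against 18.6 ± 1.53% under mock. Shares of a sum are tied to each other, and were not tested. Of the LHCB2 counts, LHCB2.1 took 54.1 ± 1.19% in bzip17/28 with Tm and 58.1 ± 0.973% under mock, against 65.0 ± 4.17% in WT with Tm and 62.0 ± 1.98% under mock. RBCS2B held 81.8 ± 2.06% of the RBCS counts in WT with Tm, against 75.9 ± 2.03% under mock, and RBCS1A nearly all of the rest. RBCS2B has 1 transcript model, RBCS1A and RBCS1B have 2 and RBCS3B has 3. LHCB2.1 has 2 and LHCB2.2 has 1. Reads that fit several models are set aside, so the LHCB2 and RBCS shares do not compare the levels of the copies. Low counts of RBCS1B and RBCS3B do not show that they are silent.

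**Figure D5:**
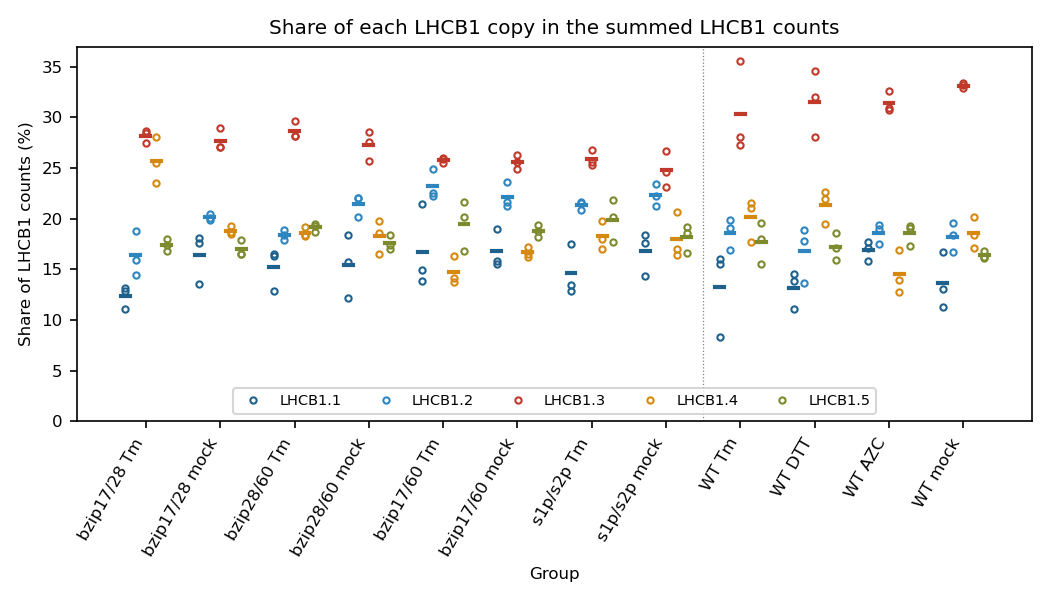
Share of each LHCB1 copy in the summed LHCB1 counts of a library in percent (circles, 1 per library; bar, group mean of 3 libraries), by group along the x axis, with the dotted line between mutants and WT. LHCB1.3 holds 32.9 to 33.4% in the WT mock libraries and 23.1 to 29.0% in the mutant mock libraries, and LHCB1.4 is highest in bzip17/28 with Tm.

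The wider pathway was described with 10 further gene lists, drawn up with earlier results of these data known. Among 9 tested genes of nuclear electron transport and the ATP synthase, 1 rose and 1 fell with Tm in WT: PDE334 (AT4G32260), an ATP synthase subunit (log2 0.45 ± 0.12, adjusted p = 0.00728), and PETE2 (AT1G20340), a plastocyanin (log2 -0.46 ± 0.12, adjusted p = 0.0075). With DTT 0 of 9 were called, and with AZC 1 rose, FD1 (AT1G10960), a ferredoxin (log2 0.84 ± 0.17, adjusted p = 0.000523). FD1 was also higher in bzip17/28 under mock (log2 0.77 ± 0.16, adjusted p = 0.000748). FNR2, a ferredoxin reductase with few counts, was lower in all 4 mutants under mock, by log2 values from -1.54 to -2.77 (adjusted p = 0.00189 to 0.0309). The shared WT mock libraries were scattered, with 13.9 ± 9.51 CPM and a range of 6.22 to 24.5 CPM. The bzip28/60 libraries, at 2.51 to 6.31 CPM, overlapped with them. FNR2 has 3 transcript models, and reads that fit several of them are set aside.

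Among 11 tested Calvin cycle genes, 2 rose and 3 fell with Tm in WT, 0 were called with DTT and 1 rose with AZC. PRK, which makes the substrate of Rubisco, rose with Tm (log2 0.60 ± 0.13, adjusted p = 0.000969), and TKL1, a transketolase (log2 -0.60 ± 0.12, adjusted p = 0.000317), and GAPA1, a glyceraldehyde phosphate dehydrogenase (log2 -0.52 ± 0.14, adjusted p = 0.00737), fell. Under mock, PGK1, a phosphoglycerate kinase, was higher in bzip17/28 (log2 0.85 ± 0.16, adjusted p = 0.00014), bzip28/60 (log2 0.84 ± 0.16, adjusted p = 0.000937), bzip17/60 (log2 0.85 ± 0.16, adjusted p = 0.00046) and s1p/s2p (log2 0.64 ± 0.16, adjusted p = 0.00807). In the list 3, 2, 3 and 1 genes were higher and 0 lower in these mutants. The others named are TKL1 (log2 0.45 in bzip17/28 and 0.38 in bzip17/60), CP12-2, a Calvin cycle regulator (log2 0.57 in bzip17/28), SBPASE, the sedoheptulose bisphosphatase (log2 0.50 in bzip28/60), and HCEF1, the plastid fructose bisphosphatase (log2 0.75 in bzip17/60). SHM1, the mitochondrial serine hydroxymethyltransferase of photorespiration, rose with Tm (log2 0.50 ± 0.14, adjusted p = 0.0105) and with AZC (log2 0.51 ± 0.14, adjusted p = 0.0173), and GDCH, of the glycine decarboxylase, rose with Tm (log2 0.50 ± 0.14, adjusted p = 0.00867). HPR1, the peroxisomal hydroxypyruvate reductase, was lower in bzip17/28 (log2 -0.57 ± 0.15, adjusted p = 0.00508) and s1p/s2p (log2 -0.48 ± 0.15, adjusted p = 0.0341) under mock, and GOX2, a glycolate oxidase with few counts, was lower in bzip17/28 (log2 -0.91).

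Among 12 tested genes of chlorophyll synthesis, 2 rose and 3 fell with Tm in WT, and 0 were called with DTT or AZC. The 3 that fell were DVR, the divinyl reductase (log2 -0.72 ± 0.17, adjusted p = 0.00209), GUN4, the activator of magnesium chelatase (log2 -0.67 ± 0.17, adjusted p = 0.00568), and CHLI1, a subunit of that chelatase (log2 -0.43 ± 0.12, adjusted p = 0.00978). CHLI1 was higher under mock in bzip17/28, bzip17/60 and s1p/s2p, by 0.52 on the log2 scale in each. GSA2, of aminolevulinate synthesis, was higher in bzip17/28 (log2 0.61) and bzip28/60 (log2 0.63), CHLH, the large chelatase subunit with few counts, was higher in bzip28/60 (log2 1.31), and DVR was lower in s1p/s2p (log2 -0.61). Of 4 tested genes of chlorophyll breakdown, RCCR fell with Tm (log2 -0.96 ± 0.17, adjusted p = 0.000139) and PAO rose with DTT (log2 0.50 ± 0.17, adjusted p = 0.0429). Of 4 tested genes of antenna insertion and phosphorylation, CPSRP43, which carries LHC proteins through the stroma, fell with Tm (log2 -0.50 ± 0.11, adjusted p = 0.00139), and STN7, the kinase of the mobile antenna, rose (log2 0.41 ± 0.14, adjusted p = 0.0403).

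Of 7 relatives of the antenna proteins tied to light stress or pigment binding, LIL3:2 rose with Tm in WT (log2 0.61 ± 0.15, adjusted p = 0.00465) and ELIP1, an early light-induced protein, rose with AZC (log2 4.19 ± 0.30, adjusted p = 2.89e-14), to 79.7 ± 11.7 CPM with AZC, against 4.29 ± 1.55 CPM under mock. Under mock SEP2 was higher in bzip17/28 (log2 0.69) and bzip17/60 (log2 0.45), as was LIL3:1 (log2 0.38 and 0.40 in the same order). Among 4 tested regulators, 0 were called with any inducer in WT. Under mock the sigma factor gene SIG6 was lower in bzip17/28, bzip28/60 and s1p/s2p, SIG2 was higher in bzip17/28, bzip17/60 and s1p/s2p, and the GATA factor gene CGA1 was lower in bzip17/28 (log2 -0.996), bzip28/60 (log2 -0.80) and s1p/s2p (log2 -0.998). GNC, its relative, was lower in bzip28/60 (log2 -0.51) and was called lower in bzip17/28 as well. Of 6 tested clock genes, ELF4 fell with AZC (log2 -0.72 ± 0.21, adjusted p = 0.0315) and GI was lower in bzip17/28, bzip17/60 and s1p/s2p, by log2 values from -0.53 to -0.56. Of 12 tested plastid-encoded genes, 1 rose and 1 fell with Tm in WT, PSBM (log2 1.14 ± 0.24, adjusted p = 0.000836) and PSBD, which had 0 to 1.54 CPM with Tm and 2.07 to 7.91 CPM under mock, and 0 were called with DTT or AZC. PSAJ was lower in all 4 mutants under mock, by log2 values from -2.35 to -3.20, against WT mock libraries that averaged 28.0 ± 20.4 CPM. PSBM (log2 -1.40) and PSBA (log2 -1.04) were lower in bzip17/28. Organelle transcripts made up 0.501 to 0.823% of assigned counts. How well these libraries of 3' ends capture plastid messages was not tested, so the plastid values describe counts and not levels of plastid messages.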

How the data were processed

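The deposited files hold whole-number read counts per transcript model (58699 models of 37336 loci), made by the authors with HTSeq 0.6.0, TopHat2 2.1.1, SAMtools and Trim Galore 0.2.8, tools which the submitters' processing notes list without order. The genome build, annotation release and strand setting used for counting are not given in the sources used here. Overlapping genes and antisense partners may therefore share reads. The 5 summary lines of each file stayed out of library sizes and tests; reads on no feature were 2.69 to 6.32%. Counts were summed per locus and genes kept with edgeR's filterByExpr (minimum count 10), which left 10480. All 36 libraries in 12 groups were fitted together (edgeR 4.0.16, TMM factors, quasi-likelihood test, 24 residual degrees of freedom, R 4.3.3), with Benjamini-Hochberg adjustment over all genes tested in a comparison and a threshold of 0.05. The code was tested on simulated data. Sequences came from RefSeq TAIR10.1 by locus tag, in which all 44 members were found.

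Members, gene lists and tests were chosen with earlier results of these data known. For each comparison the text gives up to 5 called members higher and 5 lower with at least 5 CPM, values per library for up to 3 of them (1 per class first), and from other lists the 3 lowest p among called genes, in the WT inducer and the mock comparisons. Library values of PSAO, PSAK and PSAD2 beyond this rule were added after they were seen. The settings tried were DESeq2 1.42.0, relative log expression factors, scaling by library size only, all genes kept whatever their counts, a fit of just the libraries compared, counts without organelle genes, a block for repeat number, near-identical copies added up, only loci with 1 model, and each library omitted in turn; scaling factors from the other genes and a spread per group (limma-voom, limma 3.58.1) were added after seeing the data. No pair of libraries of a group held identical counts.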

Additional observations from a re-analysis of the deposited data

Results flagged for a closer look

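In 3 cases the difference between the Tm response of a mutant and that of WT passed the test of the difference itself, an interaction in the fit over all 36 libraries. LHCB1.2 differed by -0.66 on the log2 scale in bzip28/60 (adjusted p = 0.0187), with 6537, 6449 and 6566 CPM with Tm and 8779, 9819 and 9609.5 CPM under mock in bzip28/60, and 10569.7, 10497 and 7857 CPM with Tm and 8496, 8374 and 9446 CPM under mock in WT. LHCB5 differed by -0.70 in bzip28/60 (adjusted p = 0.0162). PSAN differed by -1.06 in bzip17/60 (adjusted p = 0.0246), where WT Tm library 3 held 1004 CPM, against 335 and 554 CPM in the other WT Tm libraries. With only the libraries of the comparison fitted, none of the 3 passed, and PSAN did not pass with a spread per group either. All 3 share the WT Tm libraries, whose spread was the widest of the 12 groups.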

How the results depend on the processing

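Of 1121 repeats of the 67 member calls, 887 kept their direction and their side of the threshold, 234 kept their direction but did not pass, and 0 changed direction; 13 calls passed with any one library left out and under every alternative that could be run for the gene, 9 to 11 of them, settings that dropped it or merged it into a sum aside. With only the libraries of a comparison fitted, the number of members called was 0 for Tm, DTT, and Tm against AZC in WT, 1 for Tm against DTT, 13 for Tm in bzip28/60, 20 for bzip17/28 and 11 for bzip28/60 against WT under mock, and 0 for the response differences of bzip28/60 and bzip17/60. With DESeq2 it was 5 for DTT and 2 for AZC in WT, 6 for bzip28/60 against WT, and 1, 4, 5 and 1 for the response differences of bzip17/28, bzip28/60, bzip17/60 and s1p/s2p. With a spread per group (limma-voom, chosen after seeing the data) it was 3, 4 and 1 for Tm, DTT and AZC, 6 for Tm against DTT, 4 for Tm against AZC, 5 for Tm in bzip28/60, 10 for bzip28/60 against WT and 0 for the response difference of bzip17/60. With library size alone it was 6 for bzip28/60 against WT, and 1 and 2 for the response differences of bzip17/28 and bzip17/60. With no filter on low counts it was 1 for AZC, and 4 and 1 for the response differences of bzip28/60 and s1p/s2p. With copies summed it was 0 for Tm in bzip17/28 and in bzip28/60 and 1 for the response difference of bzip28/60. With loci of 1 model only it was 0 for DTT, 1 for Tm in bzip28/60, 5 for bzip17/28 against WT and 0 for the response difference of bzip17/60. The cause was not tested, except that the last 2 settings test fewer genes or merge members. Counts over all genes moved between settings too, such as from 1772 to 259 for Tm in WT with only the libraries of the comparison fitted.

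With 1 library left out in turn, the number called ranged from 4 to 12 for Tm, 0 to 3 for DTT, 0 to 1 for AZC, 7 to 20 for Tm against DTT, 2 to 15 for Tm against AZC and 3 to 8 for DTT against AZC in WT. It ranged from 0 to 1, 1 to 2, 0 to 0 and 0 to 0 for Tm in bzip17/28, bzip28/60, bzip17/60 and s1p/s2p, and, in that order of mutants, from 5 to 7, 1 to 2, 3 to 5 and 2 to 4 against WT under mock, and 0 to 5, 1 to 11, 0 to 10 and 0 to 7 for the response differences. Of 330 recomputed medians of the members, 13 moved by more than 0.0786 on the log2 scale, the spread of library medians. Library size alone shifted the median of all genes by 0.10 for Tm in bzip17/60 and by 0.11 for bzip17/28 against WT. No pairing by repeat number was seen. Deviations of same-numbered libraries correlated from -0.166 to 0.198 (median -0.0054), with 6 of 198 pairs over 0.1. For other-numbered libraries the range was -0.214 to 0.174 (median 0.0010), with 13 of 396 pairs over 0.1. With 3 libraries per group this check cannot exclude pairing. The replicate block moved the counts of Tm against DTT to 13, DTT against AZC to 5 and s1p/s2p against WT to 5, and left the other 15 counts as they were.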
